A study of Mus musculus with 6 samples.

Results

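The genes of this report encode subunits of the nicotinic acetylcholine receptor: *Chrna1* to *Chrna7*, *Chrnb1*, *Chrnb2* and *Chrnb4*. They were taken by name, with earlier results of these data known. All 10 were measured, each by 1 transcript cluster, among 19938 genes with a kept cluster. The knockdown group was 3 cultures of N2A cells transiently transfected with 1.5 µg of an shRNA expression construct against the long non-coding RNA *Paupar*, and the control group was 3 cultures given a non-targeting vector. N2A (neuro 2A) is a mouse neuroblastoma line, grown here with 10% fetal bovine serum in both groups, and total RNA was taken 2.5 days after transfection. Each culture was run on 1 array, and values are log2 RMA signals, on which a difference of 1 is a doubling. The cells were transfected transiently and not selected as clones, so each array averages over cells that took up the construct and cells that did not. *Paupar* itself was not analysed here.

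Nicotinic receptors are cation channels built of 5 subunits around a central pore, and acetylcholine binds between subunits. The α3 subunit, with β4 and often α5, forms the receptor that carries fast transmission in autonomic ganglia, and the genes of these subunits lie side by side in the genome. The α7 subunit can form a receptor on its own that passes much calcium, α4 with β2 is the main high-affinity nicotine site of brain, and α6 is found in dopaminergic and visual neurons. The muscle receptor of the neuromuscular endplate holds α1 and β1 with δ and either γ or ε. Neuroblastomas derive from the sympathetic lineage, whose neurons use the ganglionic receptor.

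The 6 arrays had gene medians between 7.85 and 7.92. The arrays stood at unequal distances from their group means, with root mean square deviations of 0.120, 0.116 and 0.173 for knockdown replicates 1, 2 and 3 and of 0.182, 0.153 and 0.114 for control replicates 1, 2 and 3. Probes differ in brightness, so signals are not compared between genes. The deposited table holds no detection calls, so whether a dim gene was expressed was not determined, and the cell type named in the labels could not be checked from marker levels. Changes of the markers between groups are given with the results.

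Of the 10 subunit genes, *Chrna3* fell, and none rose. In all, 6 genes had lower and 4 had higher means in knockdown cells, and the median log2 fold change over the 10 was -0.11, against 0.03 over all 19938 genes. The test (limma, Benjamini-Hochberg adjustment at 0.05) covered the 9969 genes left after the less variable 50% were removed, of which 7.54% were called, 5.16% lower and 2.39% higher. Of the subunit genes, 7 were among these. *Chrna1*, *Chrna2* and *Chrnb4* were not, and their statistics come from the same fit to all genes, in which 3.07% were called. By values alone, the knockdown and control arrays of 5 subunit genes did not overlap (4 lower, 1 higher), a share of 50% against a background of 23.5% over all genes. In the fit to all genes 4 of the 10 had an unadjusted p under 0.05, against 18.4% of all genes. The share lying wholly below control was 40%, against 10.8% of all genes. With 10 genes, of which 3 are neighbours, these shares are a description.

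**Figure D1:**
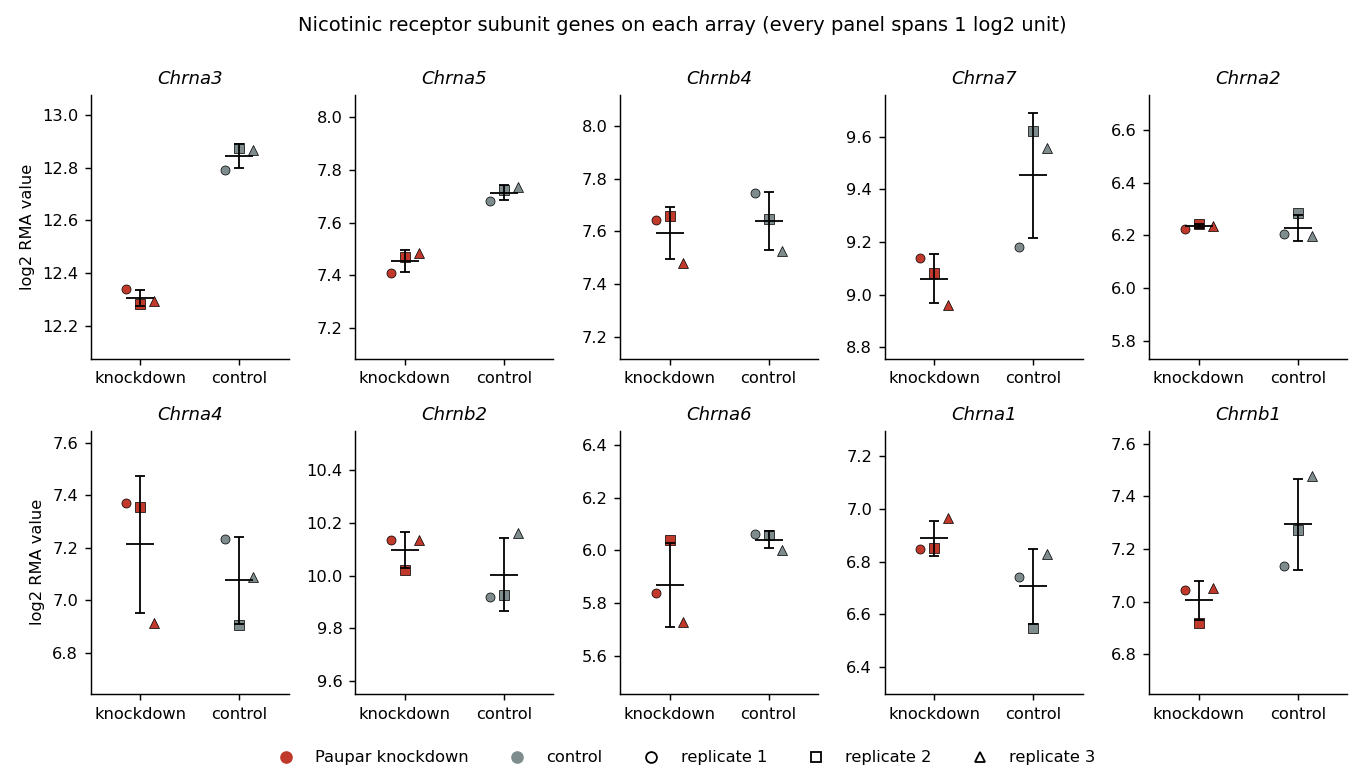
Log2 RMA value of each subunit gene (vertical axis, every panel spanning 1 log2 unit) on the 3 knockdown arrays (left, red) and the 3 control arrays (right, grey), with marker shapes for the replicate number and bars for the mean and SD. The groups of *Chrna3* lie 0.54 apart with little spread, those of *Chrna5*, *Chrna7*, *Chrnb1* and *Chrna1* are separate but closer, and those of the other 5 genes overlap.

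Of the ganglionic subunit genes, *Chrna3* passed the test and *Chrna5* and *Chrnb4* did not. *Chrna3*, which encodes the ligand-binding α3 subunit (transcript cluster 10593756, chromosome 9), had values of 12.34, 12.28 and 12.29 in knockdown cells, against 12.79, 12.87 and 12.87 in control cells. The 3 knockdown arrays lay within 0.06 of each other and below every control array. The gene fell by 0.54 on the log2 scale (SE 0.11, 95% interval -0.78 to -0.30), or 1.45-fold, with a limma adjusted p of 0.0135, and of 0.0117 where all genes were fitted. Without knockdown replicate 1, knockdown replicate 2 or control replicate 3 the adjusted p was 0.0521, 0.0766 and 0.0735, while the log2 fold change stayed between -0.57 and -0.52 whichever array was left out. Where clusters without a single gene symbol were also tested, no feature was called (2833 of 16852 had an unadjusted p under 0.05 in limma) and the adjusted p of *Chrna3* was 0.149.

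*Chrna5* encodes α5, an accessory subunit that joins receptors but does not form the usual binding site (transcript cluster 10585484, chromosome 9). It had values of 7.41, 7.47 and 7.48 in knockdown cells, against 7.68, 7.72 and 7.73 in control cells, again with no overlap. The difference was -0.26 (SE 0.11, 95% interval -0.50 to -0.02) and did not pass the threshold (adjusted p = 0.163). *Chrnb4*, for the β4 partner of α3 (transcript cluster 10593767, chromosome 9), had 7.64, 7.66 and 7.48 in knockdown cells, against 7.75, 7.65 and 7.53 in control cells. These overlapped, and the difference was -0.05 (95% interval -0.25 to 0.16, adjusted p = 0.835 in the fit to all genes). That interval does not reach the estimate for *Chrna3*, but the signals of *Chrnb4* and *Chrna5* lay below the gene median of every array. Whether such low signals held back their changes was not tested.

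The difference between subunits was taken within each array, for 5 pairs of genes chosen after their values were seen. *Chrna3* minus *Chrnb4* was 4.71 ± 0.10 in knockdown cells and 5.20 ± 0.15 in control cells (SD, n = 3 each), a shift of -0.49. *Chrna3* minus *Chrna5* was 4.85 ± 0.07 in knockdown cells and 5.13 ± 0.02 in control cells (SD, n = 3 each), a shift of -0.28. For both pairs the groups did not overlap, and the exact two-sided permutation p was 0.1, the smallest that 3 against 3 arrays allow (0.167 adjusted over the 5 pairs). The signal of *Chrna3* relative to either neighbour was lower on every knockdown array than on every control array, in a design that cannot reach 0.05. The separation was set by *Chrna3*, whose groups lay 0.45 apart. Over all arrays *Chrnb4* stayed between 7.48 and 7.75 and *Chrna5* between 7.41 and 7.73, narrower spans than that gap. The permutation test could therefore give no other result for these 2 pairs, and it adds nothing to the values.

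The cluster lay between genes that were not called. *AY074887*, *Psma4* and *Ube2q2* failed the variance filter and could not be called, so their adjusted p comes from the fit to all genes. In the reference order on chromosome 9 the measured genes ran *AY074887*, *Psma4*, *Chrna5*, *Chrna3*, *Chrnb4*, *Ube2q2* and *Fbxo22*. *Psma4*, a proteasome subunit gene beside *Chrna5*, differed by 0.01 (adjusted p = 0.983), and *AY074887*, the next gene out, by 0.05 (adjusted p = 0.819). On the other side *Ube2q2*, a ubiquitin-conjugating enzyme gene, differed by -0.03 (adjusted p = 0.915) and *Fbxo22*, for a subunit of a ubiquitin ligase, by 0.23 (adjusted p = 0.250). *Chrna5* and *Chrna3* are annotated in GRCm38.p6 as overlapping at their ends. How the probes of either cluster are placed relative to that overlap was not examined.

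**Figure D2:**
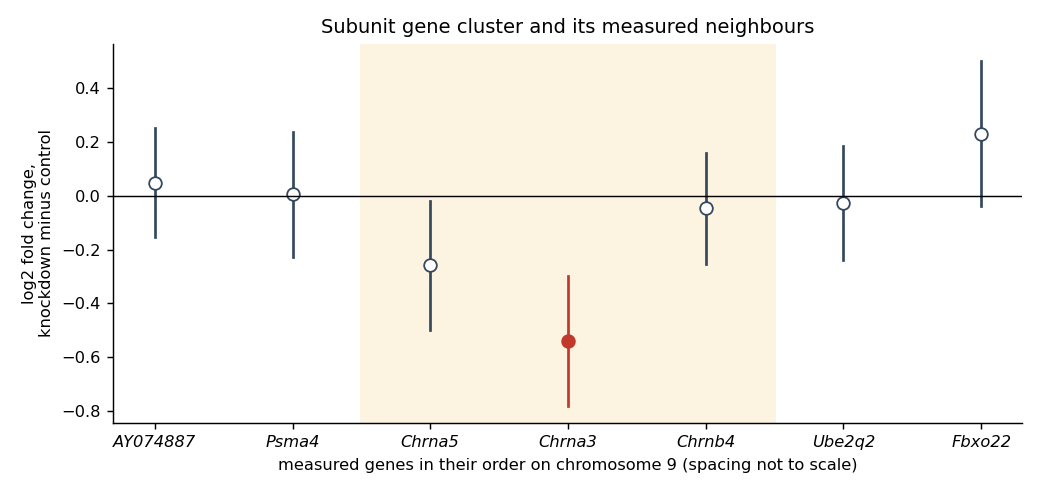
Log2 fold change, knockdown minus control, with its 95% interval (vertical axis) for the measured genes in their order on chromosome 9, with the subunit genes shaded and the gene past the threshold filled in red. *Chrna3* at -0.54 is the lowest, *Chrna5* follows at -0.26, and the intervals of *Chrnb4* and the 4 flanking genes include 0.

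The promoter windows of the 3 clustered genes are shown for comparison, since each of these neighbours has its own start site. Each window runs from 250 bases before to 50 bases after the annotated start site (RefSeq, GRCm38.p6). It is printed in the gene's own direction, with the GC box GGGCGG, which Sp1 family factors bind, and the E-box CAGCTG in capitals, on either strand. *Chrna3* starts at chr9:55026513-55026812 on the minus strand, *Chrna5* at chr9:54981238-54981537 on the plus strand (the second of its 2 annotated windows) and *Chrnb4* at chr9:55048495-55048794 on the minus strand.
Chrna3: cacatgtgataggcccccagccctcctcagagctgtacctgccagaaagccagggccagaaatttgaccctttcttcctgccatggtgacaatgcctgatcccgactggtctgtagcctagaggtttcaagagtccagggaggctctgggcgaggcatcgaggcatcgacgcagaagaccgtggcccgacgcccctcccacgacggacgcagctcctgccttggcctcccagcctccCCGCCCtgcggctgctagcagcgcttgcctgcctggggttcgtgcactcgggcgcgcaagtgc
Chrna5: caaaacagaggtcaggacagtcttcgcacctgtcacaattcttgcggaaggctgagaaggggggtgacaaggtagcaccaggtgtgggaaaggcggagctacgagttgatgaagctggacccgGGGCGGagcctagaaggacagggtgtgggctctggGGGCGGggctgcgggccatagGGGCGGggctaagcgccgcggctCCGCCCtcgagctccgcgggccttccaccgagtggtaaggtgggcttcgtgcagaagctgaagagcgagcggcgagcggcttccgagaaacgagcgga
Chrnb4: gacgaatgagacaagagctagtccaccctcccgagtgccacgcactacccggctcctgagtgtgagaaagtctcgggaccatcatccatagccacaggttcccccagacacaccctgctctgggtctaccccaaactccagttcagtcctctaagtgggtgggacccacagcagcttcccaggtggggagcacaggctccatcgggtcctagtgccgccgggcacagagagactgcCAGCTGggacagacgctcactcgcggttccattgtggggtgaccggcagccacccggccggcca

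The *Chrna3* window held 1 GC box, whose leftmost base lay 13 bases before the start site. The *Chrna5* window held 4, at 127, 92, 71 and 48 bases before the start, and its other window held none. The *Chrnb4* window held no GC box and 1 E-box, 14 bases before the start. A window was found for 8 of the 10 subunit genes, 9 windows in all, of which 6 held a GC box, against 35.7% of all 32851 promoter windows of this length. The 6 were 59.0% to 74.3% G or C, against a median of 52.7% over all windows. The shares were not matched for base content, so they are a description. *Chrna2* and *Chrna6* were without one here. Windows of *Chrna4* with 3 GC boxes, *Chrnb1* with 4 and *Chrnb2* with 1 belonged to genes that did not pass the test, as did that of *Chrnb4* with none. The E-box occurred in 2 of the 9 windows, those of *Chrnb4* (1) and *Chrna1* (2), against 16.3% of all windows.

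The genes most like *Chrna3* over the 6 arrays, among the 9968 others past the variance filter, were *Igfbp5*, *9530068E07Rik* and *Gpr155*. *Igfbp5*, which encodes a secreted binding protein of insulin-like growth factors, correlated with it at r = 0.999 (Pearson), and at 0.938 once group means were removed. It fell by 0.82 on the log2 scale (limma adjusted p = 0.00191). *9530068E07Rik* gave r = 0.999 and a log2 fold change of -0.71 (limma adjusted p = 0.00308), and *Gpr155*, for a multipass membrane protein, gave r = 0.996 and -0.93 (limma adjusted p = 0.00144). In all, 269 genes correlated with *Chrna3* above 0.95, and since the arrays form 2 groups these values mostly restate the difference between them. Once group means were removed, *9530068E07Rik* gave 0.920 and *Gpr155* 0.834. The 3 genes were picked for the highest r on the same 6 arrays, which raises their values without group means too.

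*Chrna7*, for the subunit of the calcium-permeable α7 receptor (transcript cluster 10564272, chromosome 7), was lower in knockdown cells but did not pass the threshold. It had values of 9.14, 9.08 and 8.96 in knockdown cells, against 9.18, 9.62 and 9.56 in control cells. The groups were separate by 0.04, since control replicate 1 stood well below the other two. The difference was -0.39 (SE 0.14, 95% interval -0.68 to -0.10, limma adjusted p = 0.0911), or 1.31-fold. Without control replicate 1 it was -0.53 with a limma adjusted p of 0.0418, and leaving out any other array gave adjusted p between 0.130 and 0.313. *Chrna3* minus *Chrna7* within arrays was 3.24 ± 0.08 in knockdown cells and 3.39 ± 0.19 in control cells (SD, n = 3 each; exact permutation p = 0.3, adjusted 0.375), in the same design that cannot go below 0.1.

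The *Chrna7* promoter window is shown for the additional motif it carries, at chr7:63212477-63212776 on the minus strand (RefSeq, GRCm38.p6).
Chrna7: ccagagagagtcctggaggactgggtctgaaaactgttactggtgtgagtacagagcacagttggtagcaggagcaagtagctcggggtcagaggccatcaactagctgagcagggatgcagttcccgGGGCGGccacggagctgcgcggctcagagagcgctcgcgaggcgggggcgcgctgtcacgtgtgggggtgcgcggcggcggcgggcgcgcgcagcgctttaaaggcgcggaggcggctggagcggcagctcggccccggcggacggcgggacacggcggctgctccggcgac

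Its GC box, in capitals, begins 122 bases before the start site. The Egr1 motif GCGNGGGCG, where N is any base, begins 81 bases before it and is left in lower case. That motif, which can overlap a GC box but does not here, was present in 1 of the 9 subunit windows and in 5.55% of all windows. *Egr1*, an immediate-early transcription factor gene, was on the list of promoter factors below.

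The brain-type subunits did not pass the test in either direction. *Chrnb2*, the β2 subunit gene (transcript cluster 10499643, chromosome 3), had 10.14, 10.02 and 10.14 in knockdown cells, against 9.92, 9.93 and 10.16 in control cells. The groups overlapped through control replicate 3, and the difference was 0.09 (95% interval -0.16 to 0.35, adjusted p = 0.648). *Chrna4*, its usual partner (transcript cluster 10490559, chromosome 2), had 7.37, 7.35 and 6.91 in knockdown cells, against 7.24, 6.91 and 7.09 in control cells. Knockdown replicate 3 was as low as the lowest control, and the difference was 0.14 (95% interval -0.17 to 0.45, adjusted p = 0.576). Within arrays, *Chrna3* minus *Chrnb2* was 2.21 ± 0.05 in knockdown cells and 2.84 ± 0.12 in control cells (SD, n = 3 each). The shift was -0.63, with the smallest possible exact permutation p of 0.1. Here too the separation was set by *Chrna3*, since *Chrnb2* stayed between 9.92 and 10.16 on all arrays.

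*Chrna6*, a subunit of receptors in dopaminergic neurons (transcript cluster 10577980, chromosome 8), had 5.84, 6.04 and 5.73 in knockdown cells, against 6.06, 6.06 and 6.00 in control cells. Knockdown replicate 2 lay among the controls, and the difference was -0.17 (95% interval -0.43 to 0.09, adjusted p = 0.375). *Chrna2*, a subunit with a narrow range in brain (transcript cluster 10416071, chromosome 14), had 6.23, 6.24 and 6.24 in knockdown cells, against 6.20, 6.29 and 6.20 in control cells. Its difference was the smallest of the 10 subunit genes, at 0.01 (95% interval -0.16 to 0.18, adjusted p = 0.973).

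The muscle-type subunits differed in opposite directions, neither past the threshold. *Chrnb1*, the β1 subunit gene (transcript cluster 10387625, chromosome 11), had 7.04, 6.92 and 7.05 in knockdown cells, against 7.13, 7.27 and 7.48 in control cells. All knockdown arrays were below all controls, with a difference of -0.29 (SE 0.13, 95% interval -0.56 to -0.02, adjusted p = 0.161), or 1.22-fold. *Chrna1*, the α1 subunit gene (transcript cluster 10483706, chromosome 2), had 6.85, 6.85 and 6.97 in knockdown cells, against 6.74, 6.55 and 6.83 in control cells, the one member with all knockdown arrays above all controls. The margin was 0.02, and the difference 0.18 (95% interval -0.03 to 0.40, adjusted p = 0.350). Of 8 muscle markers 2 passed the filter, and neither was called. The summed log2 signal of the 8 ranged from 59.4 to 61.0 in knockdown arrays and from 59.1 to 60.3 in control arrays.

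The remaining 6 nicotinic receptor genes, *Chrna9*, *Chrna10*, *Chrnb3*, *Chrnd*, *Chrne* and *Chrng*, showed no call. Of these, 3 passed the variance filter, and none of the 6 had separate groups. Their log2 fold changes were between 0.02 and 0.17, with a median of 0.07. *Chrne*, for the ε subunit of the adult muscle receptor, differed by 0.17 (adjusted p = 0.403) and *Chrng*, for the fetal γ subunit, by 0.04 (adjusted p = 0.850).

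Over the 7 pathway lists, 51 genes other than the subunits were measured, 22 passed the filter, 3 fell and none rose, against 5.16% and 2.39% of the tested genes. The median of the 51 was 0.03, equal to that of all genes. Of the 51, 13 (25.5%) had groups that did not overlap, against 23.5% of all genes.

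**Figure D3:**
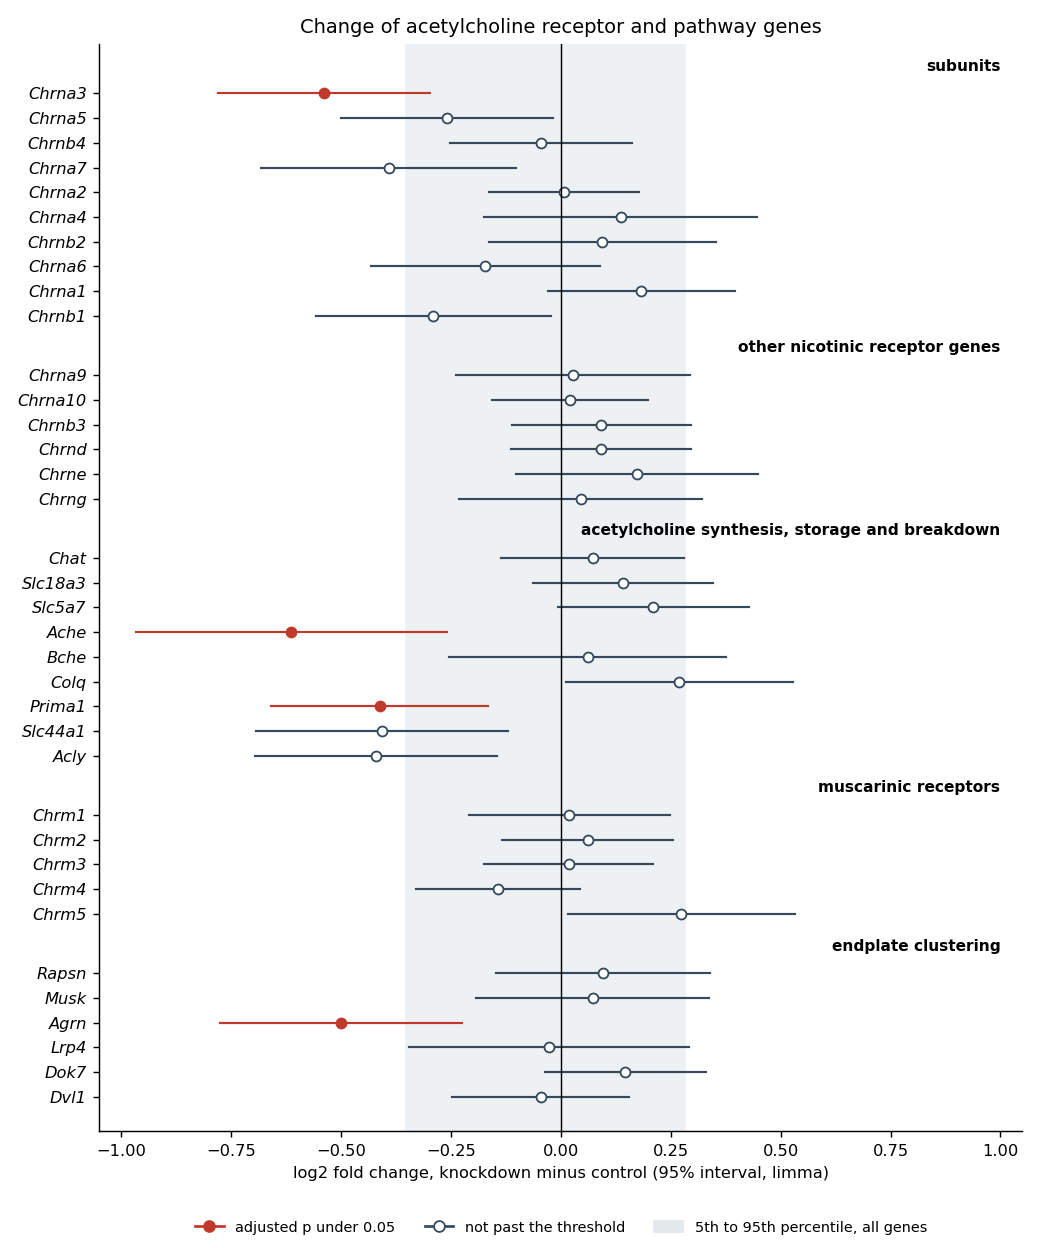
Log2 fold change, knockdown minus control, with its 95% limma interval (horizontal axis) for the subunit genes and 4 of the pathway lists, filled red where the adjusted p was under 0.05. The shaded band spans the 5th to the 95th percentile of all genes, -0.35 to 0.28, and *Chrna3*, *Ache*, *Prima1* and *Agrn* are the filled points, all to the left of it.

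Among 9 genes of acetylcholine synthesis, storage and breakdown, 6 passed the filter and 2 fell, both of the breakdown step, against 5.16% of the tested genes. The groups of 6 (66.7%) did not overlap, 4 of them below control and 2 above (*Colq* and *Slc5a7*), against 23.5% of all genes. *Ache*, for acetylcholinesterase, which ends the signal by cleaving acetylcholine (transcript cluster 10526559, chromosome 5), had 9.79, 9.80 and 10.30 in knockdown cells, against 10.87, 10.31 and 10.54 in control cells. Knockdown replicate 3 nearly met control replicate 2, and the SDs were 0.29 and 0.28. The gene fell by 0.61 on the log2 scale (SE 0.17, 95% interval -0.97 to -0.26), or 1.53-fold (limma adjusted p = 0.0392). In the fit to all genes its adjusted p was 0.0861.

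*Prima1* encodes the membrane anchor that holds acetylcholinesterase at neuronal surfaces (transcript cluster 10402318, chromosome 12). It had 9.12, 9.10 and 9.21 in knockdown cells, against 9.53, 9.49 and 9.65 in control cells, with a wider gap than spread. It fell by 0.41 on the log2 scale (SE 0.12), or 1.33-fold (limma adjusted p = 0.0453, and 0.0349 in the fit to all genes). *Ache* minus *Prima1* within arrays was 0.82 ± 0.24 in knockdown cells and 1.02 ± 0.28 in control cells (SD, n = 3 each; exact permutation p = 0.5, where 0.1 is the smallest possible), a shift of -0.20. *Colq*, which encodes the collagen tail of the muscle form of the enzyme, had 7.48, 7.42 and 7.47 in knockdown cells, against 7.36, 7.09 and 7.10 in control cells, and at 0.27 did not pass the test (adjusted p = 0.175).

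The genes that make and load acetylcholine did not pass. *Chat*, the synthesising enzyme, differed by 0.07, *Slc18a3*, the vesicular transporter, by 0.14, and *Slc5a7*, the choline uptake transporter, by 0.21. Each of these failed the variance filter. *Acly*, which supplies acetyl-CoA, differed by -0.42 (adjusted p = 0.0601) and *Slc44a1*, a choline transporter of broad expression, by -0.41 (adjusted p = 0.0765). Both had all knockdown arrays below all controls. *Colq*, *Chat*, *Slc18a3*, *Slc5a7*, *Acly* and *Slc44a1* were picked for mention after their values were seen.

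Of 7 endplate clustering genes (with *Chrnb1* among them), 4 passed the filter and 1 fell, against 5.16% of the tested genes. The groups of 3 (42.9%) did not overlap, 2 of them below control and 1 above (*Dok7*, at 0.15), against 23.5% of all genes. *Agrn*, for agrin, the secreted proteoglycan that gathers muscle receptors under the nerve ending (transcript cluster 10519270, chromosome 4), had 10.67, 10.55 and 10.90 in knockdown cells, against 11.34, 11.14 and 11.14 in control cells. The lowest control stood 0.24 above the highest knockdown array. It fell by 0.50 on the log2 scale (SE 0.13), or 1.41-fold (limma adjusted p = 0.0327, and 0.0434 in the fit to all genes). The genes of its receptor complex, *Lrp4* and *Musk*, were not called, and the scaffold gene *Rapsn* and *Dok7* failed the filter. The list's median was -0.03.

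**Figure D4:**
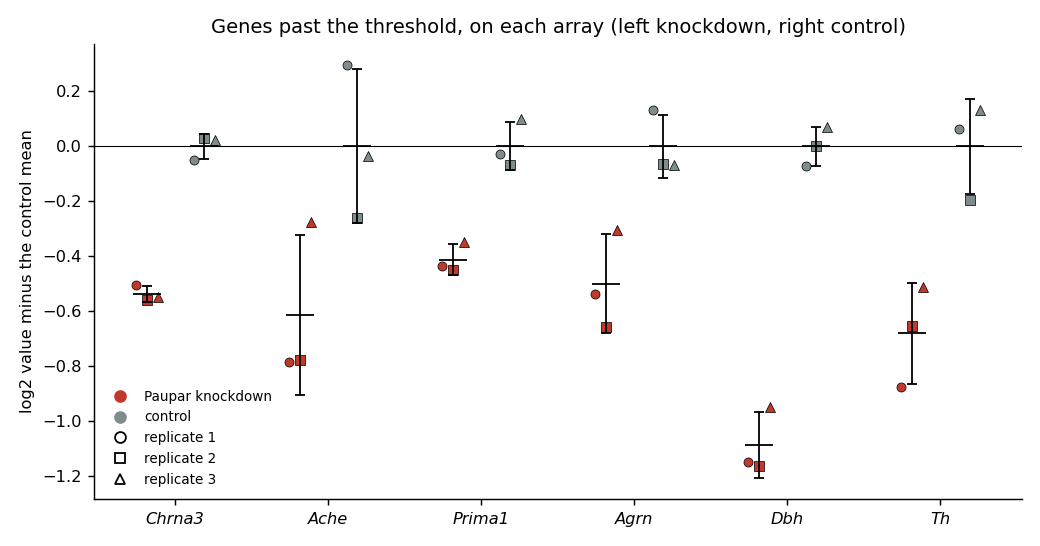
Log2 value minus the gene's control mean (vertical axis) on each array for the acetylcholine genes past the threshold and for the noradrenergic markers *Dbh* and *Th*, with knockdown arrays left in red, control arrays right in grey, and bars for the mean and SD. The knockdown values of *Chrna3* sit close together near -0.54, while those of *Ache* spread over more than 0.5.

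No gene was called in the other lists. Of 14 genes for receptor assembly, chaperones and prototoxins, which shape how many receptors reach the surface, 12 failed the variance filter, and the median was 0.04. The 2 members with the highest signal were *Ywhah*, a 14-3-3 protein gene, at -0.08 (adjusted p = 0.697), and *Nptn*, for the adhesion protein neuroplastin, at -0.18 (adjusted p = 0.254). Of 5 muscarinic receptor genes, the G protein-coupled receptors for the same transmitter, 4 failed the filter, and *Chrm4* differed by -0.14 (adjusted p = 0.410) and *Chrm1* by 0.02 (adjusted p = 0.945). *Chrm5*, which passed the filter, had the largest change of the list at 0.27 (limma adjusted p = 0.168) and was not called. Groups did not overlap for 2 of the 5 (40%, against 23.5% of all genes), *Chrm4* below control and *Chrm5* above. The serotonin type 3 receptor genes, for channels of the same structural family, were at -0.21 for *Htr3a* (adjusted p = 0.344) and -0.17 for *Htr3b* (adjusted p = 0.389).

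Of 9 measured factors known at subunit gene promoters, 5 passed the filter, with a median of -0.02. *Hnrnpk*, for an RNA- and DNA-binding protein, differed by -0.05 (adjusted p = 0.797), and *Pura*, for a single-strand binding protein, by -0.35 (adjusted p = 0.0826). None of the 5 past the filter was called, *Egr1* among them at -0.17 (limma adjusted p = 0.369). *Sp1* and *Sp3* failed the filter and could not be called. They differed by 0.09 and 0.14 (limma adjusted p = 0.715 and 0.412 in the fit to all genes). Groups did not overlap for 2 of the 9 (22.2%, against 23.5% of all genes), *Pura* below control and *Sp3* above.

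Some markers of the sympathetic neuroblast were lower in the knockdown group, where *Chrna3* was also lower. Of 12 measured markers 9 passed the filter, of which 3 fell, against 5.16% of the tested genes, and none rose. Groups did not overlap for 4 of the 12 (33.3%, against 23.5% of all genes), and the other 8 overlapped, with *Ddc* at 0.04 and *Slc6a2* at 0.06. Those that fell were *Dbh*, the enzyme that makes noradrenaline, by 1.09 on the log2 scale (limma adjusted p = 0.000687), *Th*, the first enzyme of catecholamine synthesis, by 0.68 (limma adjusted p = 0.0105), and *Slc18a1*, a vesicular monoamine transporter gene, by 0.66 (limma adjusted p = 0.0225). In the fit to all genes their adjusted p was 0.00403 for *Dbh*, 0.0231 for *Th* and 0.0524 for *Slc18a1*, and of the 16 alternatives 1, 4 and 6 lost the call. The summed log2 signal of the 12 ranged from 119.8 to 121.2 in knockdown arrays and from 123.4 to 124.7 in control arrays, with a median change of -0.16. Among 4 measured Schwann and glial markers 1 passed the filter, *Erbb3*, a neuregulin receptor gene, which fell by 0.63 (limma adjusted p = 0.0133). In the limma fit to all genes its adjusted p was 0.0242, and the call was lost in 5 of the 16 alternatives. The sums of the 4 ranged from 29.2 to 29.3 in knockdown arrays and from 29.3 to 30.1 in control arrays. Of 6 fibroblast markers 5 passed the filter and none was called (summed signal 42.3 to 42.9 in knockdown and 41.5 to 43.2 in control arrays). Of 6 markers of blood and endothelium 3 passed and none was called (42.1 to 42.7 in knockdown and 41.3 to 42.8 in control arrays). The part of these markers in the results was not tested, and in bulk RNA fewer cells of a type and less RNA per cell cannot be told apart.

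**Figure D5:**
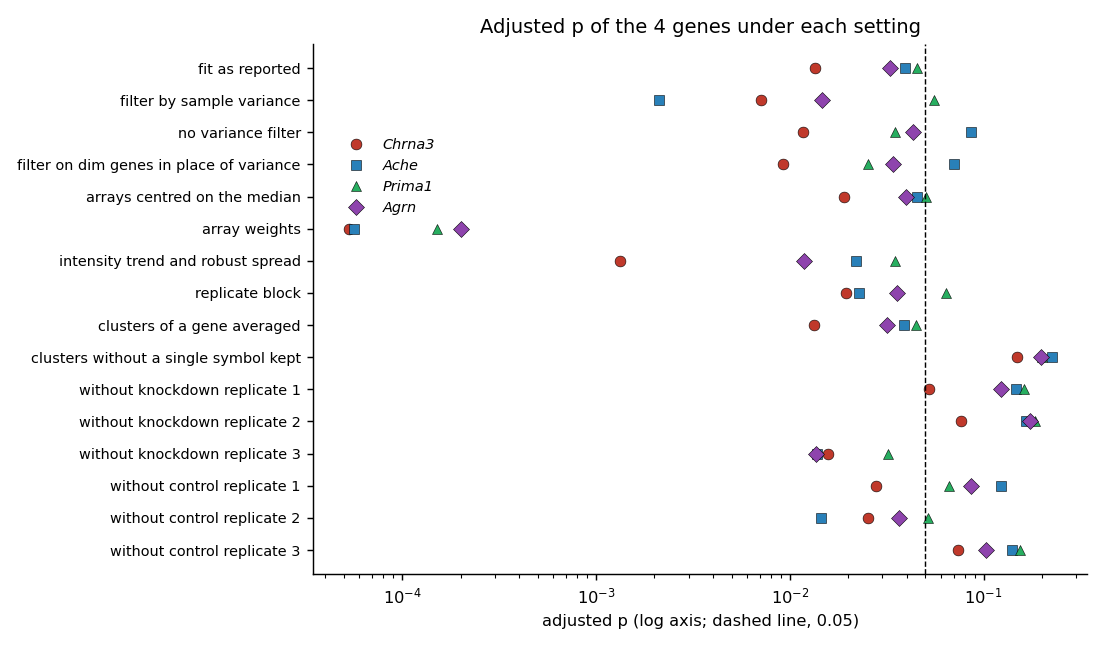
Limma adjusted p (horizontal log axis, dashed line at 0.05) of *Chrna3*, *Ache*, *Prima1* and *Agrn* under each way of processing the values or leaving out an array (vertical axis). *Chrna3* lies right of the line without knockdown replicate 1, knockdown replicate 2 or control replicate 3 and where clusters without a single symbol were kept, and the other 3 genes cross it more often.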

How the data were processed

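RNA from 3 knockdown and 3 control cultures (biological replicates per the methods) was hybridised to Affymetrix Mouse Gene 1.0 ST arrays. The authors deposited log2 values after RMA (background correction, quantile normalisation between arrays and summary per transcript cluster); software versions and the genome build were not given in the sources used here. Of 35556 clusters, 21789 carried 1 gene symbol, 1621 several and 12146 none. Genes with several clusters (999, no subunit gene among them) kept the one with the highest mean, leaving 19938 genes.

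The study's methods name a variance filter and limma. The measure of variation was not given, so the interquartile range was chosen here: the 50% of genes with the lowest were removed, and groups were compared with limma 3.58.1 (lmFit, eBayes) in R 4.3.3 with Benjamini-Hochberg adjustment over 9969 genes. Members that failed the filter were taken from the same fit to all genes. On simulated data this filter, which sees both groups, let through more false calls than the target, and the fit without it did not, so its adjusted p is also given for each acetylcholine and marker gene called. Within-array differences used exact permutation tests. Array number limits the precision.

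Members and lists were chosen with earlier results of these data known. Named were all subunits, up to 4 called members of each list by smallest p or else up to 2 by signal, the 2 nearest measured genes on each side of the cluster, and the 3 genes most correlated with a called subunit. Other genes were mentioned outside these rules with their values known, among them *Chrm5*, *Dok7*, *Lrp4*, *Musk*, *Rapsn*, *Sp1*, *Sp3*, *Egr1*, *Ddc*, *Slc6a2*, *S100b*, *Gfap* and *Sox10*. Motifs were searched on both strands.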

Additional observations from a re-analysis of the deposited data

How the results depend on the processing

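With 3 arrays a group, calls near the threshold moved with single arrays. Against 1 subunit gene and 3 other pathway genes called, weighting arrays by their spread, which gave knockdown replicate 3 and control replicate 1 weights of 0.312 and 0.289 and control replicate 3 a weight of 4.44, called 5 (*Chrna3*, *Chrna4*, *Chrna5*, *Chrna7* and *Chrnb1*) and 12, among 5561 genes in all against 752. Filtering by sample variance in place of the interquartile range called 995 genes, with *Acly* gained at an adjusted p of 0.0499 and *Prima1* lost at 0.0551. An intensity trend with robust spread called 6 pathway genes, and a threshold of 0.10 called 2 subunit genes (*Chrna3* and *Chrna7*) and 6 pathway genes. Keeping clusters without a single symbol left 0 and 0, with no call by limma among 16852 features, of which 2833 had an unadjusted p under 0.05. Leaving out 1 array gave 0 to 2 subunit genes and 0 to 5 pathway genes: both counts were 0 without knockdown replicate 1, knockdown replicate 2 or control replicate 3, when 201, 138 and 112 genes were called in all, and without control replicate 1 (242 in all) 2 subunit genes and 0 pathway genes were. Without knockdown replicate 3 the total was 1239. *Ache* was lost in 7 of the 16 alternatives, *Prima1* in 9 and *Agrn* in 5, and *Chrna3* in 4. For 37 genes followed one by one over these alternatives, the direction and side of the threshold were kept 509 times, a call lost 44 times and gained 23 times. They were the genes named by rule with *Acly*, *Colq* and *Slc44a1*, and the other genes mentioned were not followed in this way.

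The sign turned 16 times, each for an uncalled gene. Array weights gave -0.0395 for *Chrnb2*, 0.0849 for *Chrnb4*, 0.00194 for *Htr3b*, -0.0809 for *AY074887* and -0.0113 for *Psma4*. Leaving out single arrays gave -0.00894 to 0.0347 for *Chrna2*, -0.103 to 0.0103 for *Chrnb4*, -0.0489 to 0.129 for *Chrng*, -0.0587 to 0.121 for *Chrm1*, -0.0942 to 0.0968 for *Psma4* and -0.0975 to 0.0567 for *Ube2q2*. The cause of these changes was not tested.

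Deviations from the group means correlated at -0.340, 0.0956 and 0.0797 between arrays of the same replicate number. Such deviations cancel out within a group, so the correlations depend on each other. Whether the replicate numbers pair the arrays was not tested. Arrays of different number gave 0.443 for knockdown replicate 1 with control replicate 2 and 0.261 for knockdown replicate 3 with control replicate 1. Knockdown replicate 3 with control replicate 2 gave -0.372. What arrays of the 2 groups share was not tested. With the replicate number as a block 680 genes were called in all, 1 subunit gene, *Chrna3* at an adjusted p of 0.0194, and 2 pathway genes, *Prima1* being lost at 0.0642.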
